A study of Mus musculus with 3 samples.

Results

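The cadherins of the kidney mesenchyme and epithelium were followed with every non-control probe whose gene name was Cdh1, Cdh2, Cdh3, Cdh4, Cdh6, Cdh11, Cdh13 or Cdh16. These 8 genes had 15 probes among the 41174 probes of the array. Kidney rudiments of C57BL/6 Fgfrl1-/- mice and of C57BL/6 wildtype mice, both at stage E12.5, were compared on 3 arrays, which probed 3 RNA pools of either genotype. The rudiments came from littermates, 6 to 9 were pooled per RNA preparation, and the Fgfrl1 deletion was present in the whole animal. Every array held 1 Fgfrl1-/- pool in the green channel (Cy3) and 1 wildtype pool in the red channel (Cy5), so that genotype and dye cannot be told apart. Array 1 lay on one slide, arrays 2 and 3 on another. All ratios are log2 values of Fgfrl1-/- over wildtype, given as the mean ± SD of 3 arrays, and adjusted p-values come from the moderated test of limma with Benjamini-Hochberg adjustment over all 41174 probes.

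Cadherins are calcium-dependent adhesion proteins that bind a cadherin of the same or a similar type on the neighbouring cell. The cytoplasmic tail of the classical members is coupled to actin through the catenins. In the kidney, loose metanephric mesenchyme is known to carry Cdh2 (N-cadherin) and Cdh11 (OB-cadherin), whereas condensed and newly epithelial nephrons gain Cdh4 (R-cadherin) and Cdh6 (K-cadherin). The ureteric bud carries Cdh1 (E-cadherin) and Cdh16 (Ksp-cadherin, whose short tail lacks the catenin-binding part). The mesenchymal, nephron and ureteric classes used here follow this general knowledge, and Cdh3 (P-cadherin) and Cdh13 (T-cadherin, anchored by a lipid) were not placed in a class. RNA of whole rudiments does not show where a transcript was made, and fewer cells of a type cannot be told apart from less RNA per cell.

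The Cdh4 probes are shown because they gave 3 different sizes of the same change, and the probes of Cdh6 and Cdh11 because they allow a comparison with another nephron and a mesenchymal cadherin. Positions are those on mm8 in the files, sequences run from 5′ to 3′, and capitals mark the letters AACGACAAC, which in a cadherin reading frame lie in a calcium-binding linker between extracellular repeats.
Cdh4 A_52_P402897, its starting 30 bases, chr2:179828521-179828580: ttttttgtaatcgtcaacagcacaaatatt
Cdh4 A_51_P238455, chr2:179820175-179820234: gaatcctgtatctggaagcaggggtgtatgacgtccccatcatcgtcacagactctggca
Cdh4 A_52_P181943, chr2:179776668-179776727: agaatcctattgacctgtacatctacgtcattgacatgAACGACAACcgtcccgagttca
Cdh6 A_51_P485688, chr15:12987371-12989394: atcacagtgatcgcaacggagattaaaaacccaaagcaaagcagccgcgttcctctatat
Cdh11 A_52_P683146, chr8:105557135-105557194: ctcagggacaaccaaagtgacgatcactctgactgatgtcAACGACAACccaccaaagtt
The 9 letters, searched on both strands, were found in 10 of the 41174 probes (0.0243%), and of the 15 cadherin probes in the Cdh4 probe A_52_P181943 and the Cdh11 probe shown. The Cdh4 probes A_51_P238455 and A_52_P181943 were designed on the RefSeq transcript of Cdh4. The probe A_52_P402897 was designed on a cDNA clone that the files assign to Cdh4, and the files do not say in which part of the transcript it lies. It starts 8346 bases beyond A_51_P238455, which itself starts 43507 bases beyond A_52_P181943. Its GC content was 28.3%, against 53.3% and 45% for the other Cdh4 probes and a median of 40% over all probes.

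Cdh4 was lower in the Fgfrl1-/- rudiments by 3.74-fold at its brightest probe, and Cdh16 was higher by 2.15-fold. Of the 15 cadherin probes, 2 were lower past the test, both of Cdh4, while 0.398% of all probes were called in this direction. The probe of Cdh16 was the only cadherin probe to be higher past the test, where 0.289% of all probes were called. None of the probes of Cdh1, Cdh2, Cdh3, Cdh6, Cdh11 and Cdh13 passed the test over 3 arrays. Without adjustment, 6 cadherin probes had a p below 0.05 (3 of Cdh4 and those of Cdh1, Cdh6 and Cdh16), as did 15.9% of all probes. The ratio was below 0 on 3 of 3 arrays for 4 cadherin probes, those of Cdh4 and Cdh11 A_52_P437795, beside 19.2% of all probes. It was above 0 on 3 of 3 arrays for 5, those of Cdh1, Cdh6 and Cdh16, Cdh2 A_52_P322725 and Cdh11 A_51_P506204, beside 19.0% of all probes. With the channels fitted as unpaired samples, the adjusted p was 0.0881 for both called Cdh4 probes and 0.185 for Cdh16, past the threshold for none. The median ratio of the 15 probes was 0.09, and that of all probes 0.0037.

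**Figure D1:**
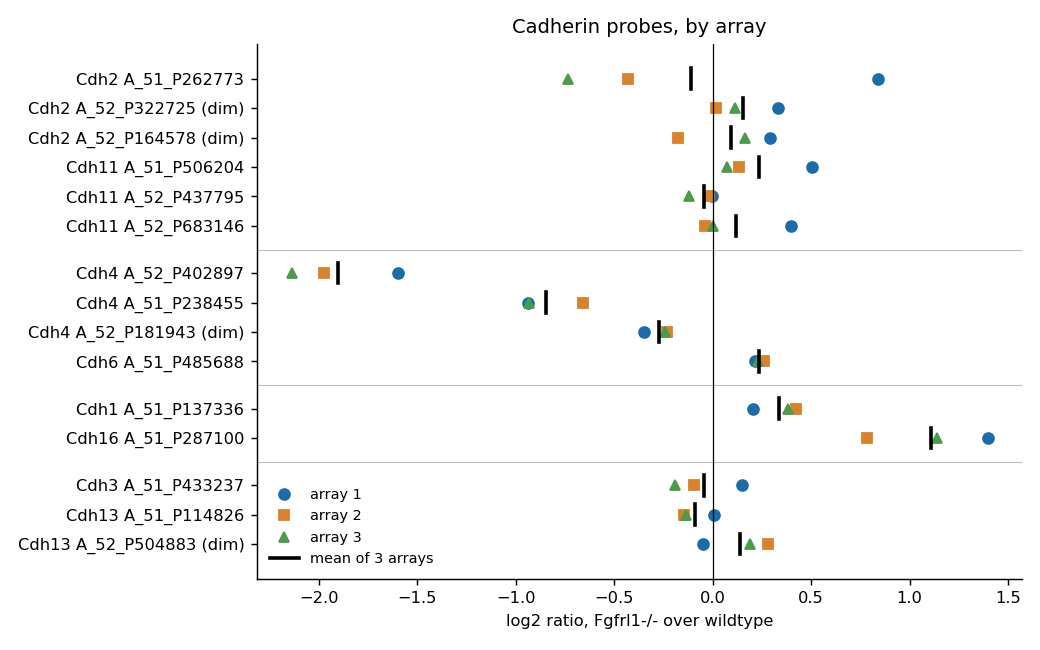
Log2 ratio of Fgfrl1-/- over wildtype (horizontal axis) for the 15 cadherin probes, with a symbol for each of the 3 arrays and a bar for their mean; lines separate the mesenchymal, nephron, ureteric and unplaced genes, and "dim" marks probes not well above background in 1 or more channels. The 3 Cdh4 probes lie below 0 on every array at 3 different distances, Cdh16 lies above 0 on every array, and Cdh2 A_51_P262773 lies above 0 on array 1 and below 0 on arrays 2 and 3.

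Before single genes are described, 2 properties of the arrays have to be given. The targeted gene Fgfrl1 was lower in the Fgfrl1-/- pools on every array (log2 ratio -1.52 ± 0.31, 2.86-fold, adjusted p = 0.0332), and the position of its probe relative to the deleted part was not checked. Array 1 stood apart from the other two, since the correlation of the ratios across probes was 0.71 between arrays 2 and 3 but 0.11 and 0.22 between array 1 and these arrays. Each cadherin is therefore given array by array. A fit of arrays 2 and 3 alone, which share a slide, called 4 cadherin probes lower, when 10.1% of all probes were called lower, and 4 higher, when 8.49% of all probes were called higher. The lower ones were the 3 Cdh4 probes and Cdh2 A_51_P262773, and the higher ones belonged to Cdh1, Cdh6, Cdh13 (A_52_P504883) and Cdh16.

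Among the nephron cadherins, Cdh4 showed the largest change of all 8 genes. The raw median signal of its brightest probe, A_52_P402897, was 509 (array 1), 237 (array 2) and 310 (array 3) for Fgfrl1-/- and 1407, 2208 and 2052 for wildtype RNA. The Fgfrl1-/- spots were thus dimmer on every array. Over all spots, the median raw signal was also lower for Fgfrl1-/-, with 97, 60 and 68 against 99.5, 113 and 107.5 for wildtype. The log2 ratios were -1.60, -1.98 and -2.14, with a mean of -1.90 ± 0.28 (adjusted p = 0.0259). Only 7 of the 41174 probes had a lower mean ratio, since this probe took rank 8 from the bottom. Its call was lost without array 2 (-1.87, adjusted p = 0.201) and without array 3 (-1.79, adjusted p = 0.356), but not without array 1. In the fits that lost it, 0 of all probes were called, so the loss is not particular to this probe. Without array 1, 7666 of all probes were called.

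The Cdh4 probe A_51_P238455 gave a smaller fall. Its raw signal was 94, 69 and 77 in the Fgfrl1-/- channel and 186, 225 and 252 in the wildtype channel, above background in either channel of every array. The log2 ratios were -0.94, -0.66 and -0.93, with a mean of -0.84 ± 0.16 (1.80-fold lower, adjusted p = 0.0403). This call was lost without array 2 (-0.94, adjusted p = 0.290) and without array 3 (-0.80, adjusted p = 0.471), where 0 of all probes were called.

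The remaining Cdh4 probe, A_52_P181943, was close to background. Its raw signal of 32.5, 31 and 33 in the Fgfrl1-/- channel stood over a local background of 18.5, 24 and 23, and that of 77, 62 and 72 in the wildtype channel over 55.5, 38 and 43. The Fgfrl1-/- channel was well above background on 1 of 3 arrays and the wildtype channel on 2 of 3. The log2 ratios were -0.35, -0.23 and -0.24, with a mean of -0.27 ± 0.06 that did not pass the test (adjusted p = 0.154).

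**Figure D2:**
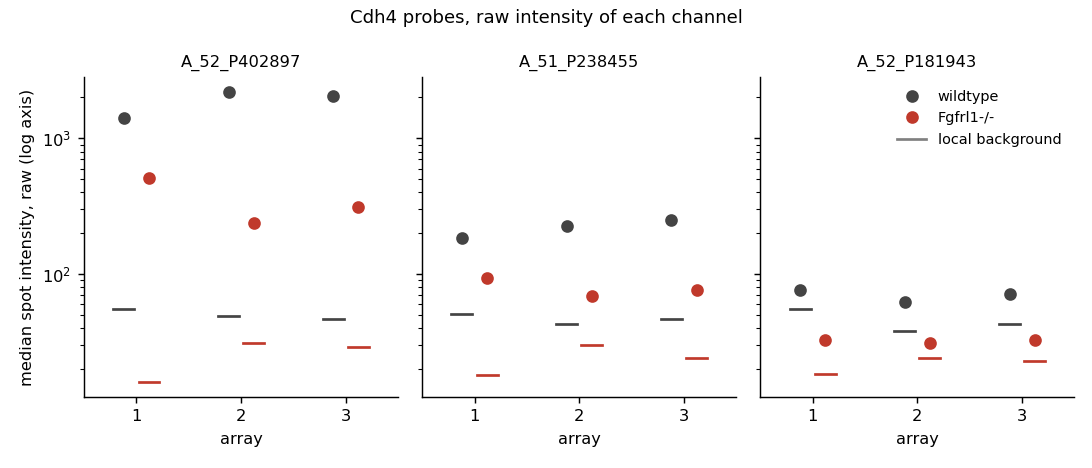
Raw median spot intensity (log axis) of the 3 Cdh4 probes on arrays 1 to 3, with points for the wildtype and Fgfrl1-/- channels and short lines for the local background of each channel. The gap between the channels is wide for A_52_P402897, whereas the points of A_52_P181943 lie just above their backgrounds.

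The disagreement between the Cdh4 probes concerned the size and not the direction of the change. The ratio of A_52_P402897 minus the mean ratio of the other Cdh4 probes was -0.95, -1.53 and -1.55 on arrays 1, 2 and 3 (mean -1.34 ± 0.34 log2 units, exact sign-flip permutation test over 3 arrays, two-sided p = 0.25, the smallest that 3 arrays allow). Between A_51_P238455 and A_52_P181943 the difference was -0.57 ± 0.13 (exact sign-flip p = 0.25). The order of the probes was thus the same on every array with these ratios.

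The gap between the Cdh4 probes moved with the treatment of the background. With a normexp offset of 0 in place of 50, the ratios were -2.06 for A_52_P402897, -1.27 for A_51_P238455 and -0.85 for A_52_P181943. With the ratios of the scanner software they were -2.12, -1.55 and -1.34, and the difference between the brightest probe and the others shrank to -0.67. On array 1 the scanner ratios changed the order of the probes, with -1.90 for A_52_P181943, -1.85 for A_52_P402897 and -1.63 for A_51_P238455. With an offset of 0 and with the scanner ratios, none of the 3 probes passed the test (adjusted p of 0.295 and 0.158 for the brightest probe). In both fits 0 of all probes were called, so the loss is not particular to Cdh4. The dimmest probe changed most, from 1.21-fold to 2.54-fold lower, and the brightest least, from 3.74-fold to 4.35-fold. In the authors' table the ratios were -1.99, -0.98 and -0.37. The fold change that the study listed for Cdh4 lay near that of A_51_P238455 in this table (1.97-fold). It was below that of A_52_P402897 (3.96-fold). With all Cdh4 probes averaged, the gene had a ratio of -1.01 (adjusted p = 0.0259 over 27745 gene names).

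**Figure D3:**
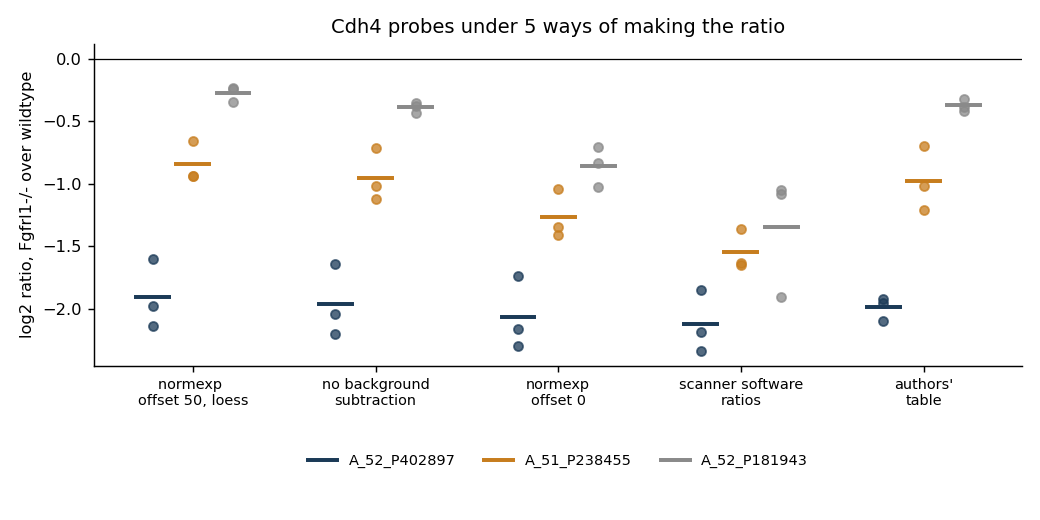
Log2 ratio of Fgfrl1-/- over wildtype for the 3 Cdh4 probes (colours) under 5 ways of making the ratio, with a point per array and a bar for the mean of 3 arrays. The mean of A_52_P402897 stays between -2.12 and -1.90, while that of A_52_P181943 runs from -1.34 with the scanner software to -0.27 with an offset of 50.

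Cdh6, the other nephron cadherin, was not lower. Its only probe, whose position on mm8 spans more than its 60 bases, gave a raw signal of 147, 73 and 83 in the Fgfrl1-/- channel and of 114.5, 107 and 105 in the wildtype channel. The normalised log2 ratios were 0.21, 0.26 and 0.23, with a mean of 0.23 ± 0.02. The probe was above 0 on 3 of 3 arrays and did not pass the test (adjusted p = 0.184). On arrays 2 and 3 the raw signal was thus lower with Fgfrl1-/- RNA although the normalised ratio was above 0. Over all spots, the median raw signal on these arrays was 60 and 68 for Fgfrl1-/- against 113 and 107.5 for wildtype.

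Among the ureteric cadherins, Cdh16 rose. Its probe at chr8:107503330-107503389 had a normalised log2 level of 12.57, 12.73 and 12.78 in the Fgfrl1-/- pools and of 11.17, 11.95 and 11.64 in the wildtype pools. The raw signals overlapped between genotypes, with 4771, 4645 and 6905 for Fgfrl1-/- and 1668, 6755 and 4760 for wildtype RNA. On array 2 the raw signal was lower with Fgfrl1-/- RNA. The log2 ratios were 1.40, 0.78 and 1.14, with a mean of 1.11 ± 0.31 (2.15-fold higher, adjusted p = 0.0429), and only 6 probes of the array had a higher mean, as the probe took rank 7 from the top. The call was lost without array 2 (1.27, adjusted p = 0.225) and without array 3 (1.09, adjusted p = 0.471), where 0 of all probes were called. It was also lost with median centring in place of loess (0.74, adjusted p = 0.226), where 93 of all probes were called. Neither Cdh16 nor Cdh4 was among the genes that the study measured by qPCR, which did not bear out any of the higher genes it tested.

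Cdh1 was higher on every array by less than Cdh16, and did not pass the test. Its probe was spotted 10 times per array, with ratios of the single spots between 0.02 and 0.36 on array 1, between 0.27 and 0.48 on array 2 and between 0.24 and 0.46 on array 3. The spots of an array share their RNA pools and were averaged. The resulting log2 ratios were 0.20, 0.43 and 0.38, with a mean of 0.34 ± 0.12 (adjusted p = 0.126), and with median centring in place of loess the mean was 0.072. On arrays 2 and 3 alone, which share a slide, the mean was 0.40 (adjusted p = 0.00233), when 8.49% of all probes were called higher.

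The mesenchymal cadherins did not change past the test. Cdh2 had 1 bright and 2 dim probes. The bright probe, A_51_P262773, had a log2 ratio of 0.84 on array 1 but of -0.43 and -0.73 on arrays 2 and 3, so that its mean of -0.11 ± 0.83 hides opposite values (adjusted p = 0.920). On arrays 2 and 3 alone, which share a slide, it was lower (-0.58, adjusted p = 0.000583), when 10.1% of all probes were called lower. The dim Cdh2 probe A_52_P322725 had 0.33, 0.02 and 0.12, with a mean of 0.16 ± 0.16, and A_52_P164578 had 0.29, -0.17 and 0.16, with a mean of 0.09 ± 0.24. A_52_P164578 was not well above background with any of the wildtype pools.

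The raw signal of the Cdh11 probe A_51_P506204 lay between 5801 and 11016 with Fgfrl1-/- RNA and between 3910 and 18530 with wildtype RNA, and these ranges overlapped. Its log2 ratios were 0.51, 0.14 and 0.07, with a mean of 0.24 ± 0.23 (adjusted p = 0.366). The probe A_52_P683146 had 0.40, -0.04 and 0.00, with a mean of 0.12 ± 0.24, and A_52_P437795 had 0.00, -0.02 and -0.12, with a mean of -0.05 ± 0.06. Array 1 was the highest of the 3 arrays for each Cdh11 probe. With median centring in place of loess, all 3 means were below 0 (-0.18, -0.16 and -0.44), so that no direction can be given for Cdh11.

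Of the genes without a class, Cdh3 had log2 ratios of 0.15, -0.10 and -0.19 (mean -0.05 ± 0.18, adjusted p = 0.875). Cdh13 had log2 ratios of 0.01, -0.15 and -0.13 at A_51_P114826 (mean -0.09 ± 0.09, adjusted p = 0.643). At A_52_P504883 they were -0.05, 0.28 and 0.19 (mean 0.14 ± 0.17, adjusted p = 0.542). The latter probe was not well above background with any wildtype pool and with 1 of 3 Fgfrl1-/- pools.

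Each class was then described per array by the mean of its genes, each represented by its brightest probe. The mesenchymal mean was 0.67, -0.15 and -0.33 on arrays 1, 2 and 3, the nephron mean -0.69, -0.86 and -0.95, and the ureteric mean 0.80, 0.60 and 0.76. The nephron class was lower than the ureteric class on every array (difference -1.56 ± 0.14) and lower than the mesenchymal class on every array (-0.90 ± 0.40). The ureteric class was above the mesenchymal class by 0.13 on array 1, 0.75 on array 2 and 1.09 on array 3 (0.66 ± 0.49). All 3 differences had an exact sign-flip permutation p of 0.25, the smallest possible with 3 arrays. The nephron mean joins genes of opposite sign, -1.90 for Cdh4 and 0.23 for Cdh6, and its distance to the mesenchymal class rests on Cdh4. The ureteric mean joins 1.11 for Cdh16 and 0.34 for Cdh1, so the distances to the ureteric class rest in part on Cdh16. On array 1, Cdh1 (0.20) was below the mesenchymal mean (0.67), and the sign of ureteric minus mesenchymal there rests on Cdh16. With all probes of a gene averaged, the difference between the nephron and mesenchymal classes was -0.46. The difference between the ureteric and mesenchymal classes was 0.92 without array 1, 0.61 without array 2 and 0.44 without array 3.

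**Figure D4:**
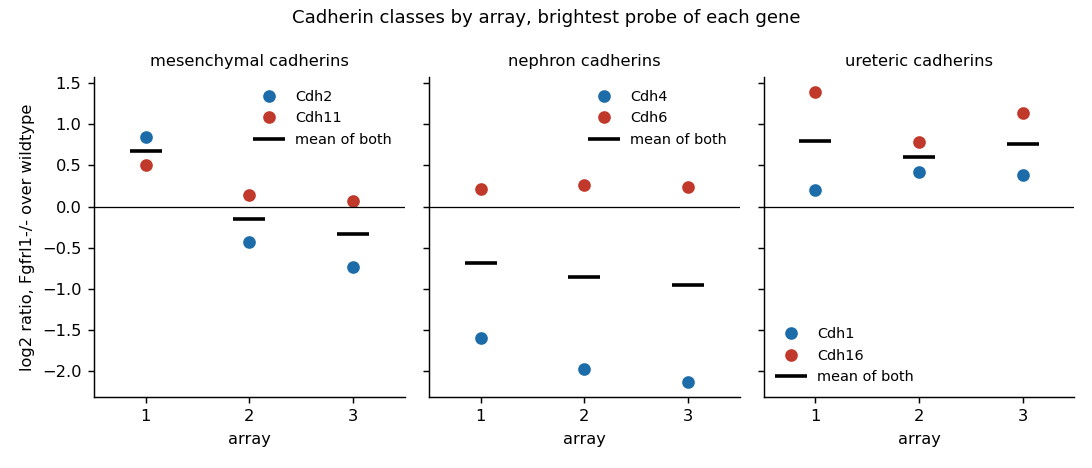
Log2 ratio of Fgfrl1-/- over wildtype on arrays 1 to 3 for the mesenchymal, nephron and ureteric cadherins, with a point for the brightest probe of each gene and a bar for the mean of both genes. Cdh4 and Cdh6 lie on opposite sides of 0 on all 3 arrays, Cdh1 and Cdh16 above 0, and the mesenchymal mean moves from 0.67 on array 1 to -0.33 on array 3.

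The genes whose ratios lay closest to those of Cdh4 A_52_P402897 over the 3 arrays were Lhx1, Fgf8 and Pcp4, with Euclidean distances of 0.29, 0.29 and 0.37 among 20837 probes of named genes that were above background throughout. Lhx1 is a transcription factor and Fgf8 a secreted growth factor of the renal vesicle, and Pcp4 is a small calmodulin-binding protein. Their mean log2 ratios were -1.88, -2.05 and -1.79. As A_52_P402897 took rank 8 from the bottom of all probes, only strongly lowered genes could lie near it. Each of these genes is among those the study listed as lower on the same arrays. The distances thus describe a similar size of change and nothing more. Closest to Cdh11 A_51_P506204 were Gmfg, Zbtb40 and Gramd1b, all at a distance of 0.02.

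Lists of marker and junction genes were set beside the cadherins, each gene counted at its brightest probe. Of all probes, 0.398% were called lower and 0.289% higher, and 15.9% had an unadjusted p below 0.05. Of 10 nascent nephron markers, 8 were lower past the test (Wnt4, Lhx1, Fgf8, Dll1, Bmp2, Dkk1, Hes5 and Hey1), against 0.398% of all probes, with a median ratio of -1.33 for the list. Pax8 (-0.91, adjusted p = 0.0509) and Jag1 (-1.28, adjusted p = 0.0604) did not pass, and another probe of each was near 0 (0.023 and -0.012). All 10 genes, and Cdh4 itself, are among those the study listed as lower on the same arrays, so that the count and the median are a description and not independent evidence. The summed level of the list lay between 4475 and 5512 in the Fgfrl1-/- pools and between 12970 and 14519 in the wildtype pools. Among 8 cap mesenchyme markers, Cited1, a transcriptional regulator of nephron progenitors, was lower (-0.78, adjusted p = 0.0442), and the median was -0.11.

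Beside Cdh16, no marker of the ureteric bud was called higher. Of 8 genes, 0 were higher past the test of limma, beside 0.289% of all probes. At an unadjusted p below 0.05, 4 were higher, beside 15.9% of all probes in either direction. Wnt11, a secreted signal of the ureteric tip, was lower (-0.76, adjusted p = 0.0408). Wnt9b (0.73, adjusted p = 0.0661), Gata3 (0.43, adjusted p = 0.0953), Calb1 (0.37, adjusted p = 0.173) and Wnt7b (0.24, adjusted p = 0.181) were above 0 on every array without passing. With Wnt11, 3 genes of the list were below 0 on every array, beside 19.2% of all probes. The median ratio was 0.19, and the summed level lay between 23216 and 28282 in the Fgfrl1-/- pools and between 21537 and 23245 in the wildtype pools. The probe of Ret, the receptor of the ureteric tip, stayed near background with RNA of both genotypes on all 3 arrays. Of 11 epithelial junction and keratin genes, 0 passed the test at the brightest probe. At an unadjusted p below 0.05 there were 4, all higher, beside 15.9% of all probes in either direction. On 3 of 3 arrays 8 were above 0, beside 19.0% of all probes, and the median was 0.23. Of the keratins of simple epithelia, Krt18 had a ratio of 0.58 ± 0.10 (adjusted p = 0.0527) and Krt8 of 0.52 ± 0.26 at its brightest probe (adjusted p = 0.114), while another Krt8 probe was higher past the test (0.83 ± 0.17, adjusted p = 0.0416). The part of these epithelial genes in the ratios of Cdh1 and Cdh16 was not tested.

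Of 8 stroma markers, Pdgfra (1.02, adjusted p = 0.0274) and Col1a1 (0.84, adjusted p = 0.0416) were higher at the brightest probe, although another probe of each did not pass (0.17 and 0.038). The study reported that its qPCR did not bear out any of the higher genes it tested, Col1a1 among them. Foxd1 was higher past the test at its dimmer probe (0.78, adjusted p = 0.0419) and not at its brightest (0.90, adjusted p = 0.0570). Tcf21 (-0.48, adjusted p = 0.127), Pdgfrb (-0.25) and Tbx18 (-0.15) had means below 0 and did not pass. The median of the list was 0.70, 0.34 and 0.12 on arrays 1, 2 and 3, beside 0.51, 0.14 and 0.07 for Cdh11 A_51_P506204. The other Cdh11 probes and Cdh2 A_51_P262773 had the values given above, with 1 or more arrays below 0. The summed level was 105365 to 135519 in the Fgfrl1-/- pools and 75061 to 75422 in the wildtype pools. The part of stromal RNA in the ratios of the mesenchymal cadherins was not tested. None of the 8 endothelium, 6 neural, 4 skeletal muscle and 4 steroidogenic markers passed the test, with 1 of them (Elavl4) below 0.05 without adjustment and list medians between -0.083 and 0.0048.

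**Figure D5:**
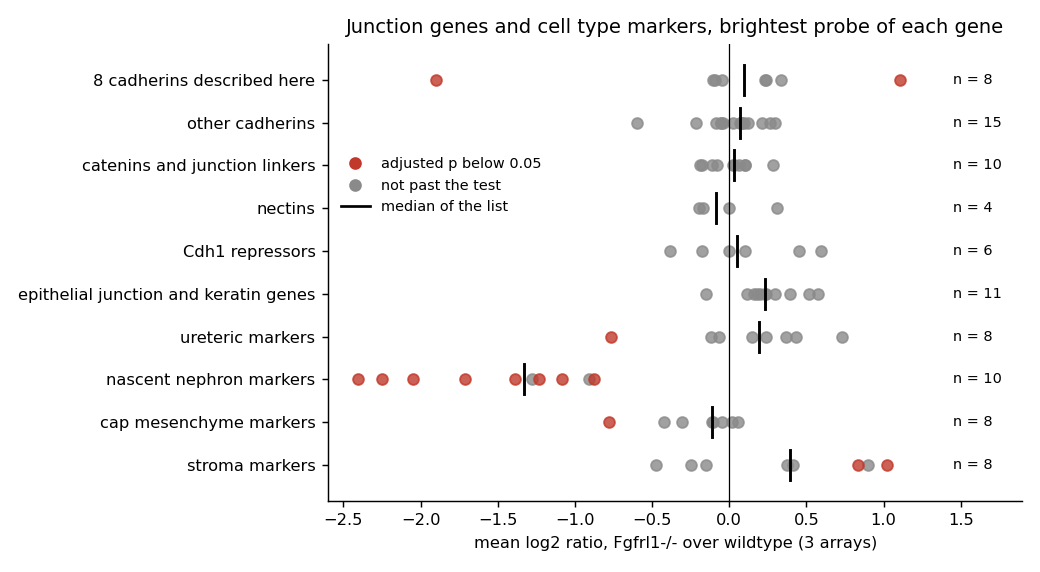
Mean log2 ratio of Fgfrl1-/- over wildtype (3 arrays) of the 8 cadherins and of the genes of 9 lists, with a point per gene at its brightest probe, coloured where the adjusted p was below 0.05, and a bar for the median of the list. The nascent nephron markers lie between -2.40 and -0.88, the catenins between -0.19 and 0.29.

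The partners of the cadherins showed no change past the test. Of 10 catenins and junction linkers 0 were called, when 0.398% of all probes were called lower and 0.289% higher. With such shares, 0 of 10 says little about the partners. At an unadjusted p below 0.05 there was 1, beside 15.9% of all probes, and the median was 0.03. Ctnnb1, the beta-catenin that binds the cadherin tail, had a ratio of 0.29 ± 0.15 at its brightest probe (adjusted p = 0.197). Its other probes gave 0.55 ± 0.08 (adjusted p = 0.0527) and 0.03 ± 1.04 (adjusted p = 0.982). Ctnna1, the alpha-catenin that leads to actin, had -0.08 ± 0.06 at its brightest probe (adjusted p = 0.687). Of 4 nectins, adhesion proteins of the same junctions, 0 were called (2 without adjustment, beside 15.9% of all probes).

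Of 6 transcription factors known to repress Cdh1, 0 passed the test (3 without adjustment, beside 15.9% of all probes). Twist1 (0.59 ± 0.20, adjusted p = 0.0779) and Twist2 (0.45 ± 0.14, adjusted p = 0.0881) were above 0 on every array and Snai1 (-0.39 ± 0.21, adjusted p = 0.157) below. Zeb1 had a ratio of 0.10 and Snai2 of -0.17.

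Of 15 further cadherins, 0 were called (5 without adjustment, beside 15.9% of all probes) and the median was 0.07. The lowest was Cdh22 at -0.60 ± 0.16 (adjusted p = 0.0646), and the highest Cdh10 at 0.30 ± 0.11 (adjusted p = 0.151). Cdh5, the cadherin of endothelium, had a ratio of -0.05 ± 0.14. For 4 of the 15 genes the brightest probe was not well above background with any Fgfrl1-/- pool, and for 8 with any wildtype pool.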

How the data were processed

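Kidney rudiments were hybridised to a 2-colour Agilent whole mouse genome array. The authors deposited, per array, raw median intensities of each spot and its background, the log10 ratio of the Feature Extraction software (version 9.5.3.1 for array 1, 10.5.1.1 for arrays 2 and 3), and a table of log2 ratios of which the normalisation is not given in the sources used here. Its direction, Fgfrl1-/- over wildtype, was read from its correlation with the scanner ratios (0.70 to 0.72). The medians of its columns were -0.018, 0 and 0.003.

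Intensities were corrected with normexp (offset 50, limma 3.58.1, R 4.3.3) and loess, outlier spots were left out, and spots of a probe were averaged. Each file held 45018 spots, 1639 of them controls, and 0 of the non-control spots were saturated. Median signals were 60 to 97 for Fgfrl1-/- and 99.5 to 113 for wildtype, and 57.1% to 80.2% of the probes were well above background per channel. The number of arrays limits the precision. Ratios were fitted with lmFit and eBayes, and the scripts were tested on simulated data. Normalised levels follow Aquantile scaling. Gene names were listed for array 1 and carried over by identical probe names. List genes were matched by symbol or, for 7 genes, by older RefSeq symbol.

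Members and lists were chosen with earlier results of these data known. All members with every probe, list genes past the test at any probe, and the 3 genes nearest to Cdh4 and Cdh11 were named; other list genes were named after their values were seen. The pools of an array were paired by their ratio. Whether the pools came from separate litters is not given, so that p-values measure only the spread between these pools.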

Additional observations from a re-analysis of the deposited data

How the results depend on the processing

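The Cdh4 probe A_52_P402897 kept its direction in 16 alternatives and passed the test in 10, with ratios from -2.12 to -1.79. Cdh16 passed in 7 of 17 (0.74 to 1.27) and Cdh4 A_51_P238455 in 5 of 15 (-1.55 to -0.80). The means of the 3 class differences and of the Cdh4 probe difference kept their direction in every alternative that gave them. They were -1.04 to -0.46 for nephron minus mesenchymal, -1.60 to -1.11 for nephron minus ureteric, 0.44 to 0.92 for ureteric minus mesenchymal and -1.60 to -0.67 for the Cdh4 probes. With the scanner ratios, ureteric minus mesenchymal was 0.49 and did not have the same sign on all 3 arrays (exact sign-flip p = 0.5). Of the cadherin probes, 2 were lower and 1 higher past the test. With a normexp offset of 0 and with the scanner ratios, 0 and 0 were called, and 0 of all probes in place of 283 (4852 and 6118 without adjustment). Called were 1 lower and 0 higher with median centring (93 of all probes, 91 lower and 2 higher, against 164 and 119), quantile normalisation (82, of which 60 lower), dim probes left out (41, of which 34 lower) and the authors' table (36, of which 32 lower). With 1 value per gene, from its brightest probe or averaged over its probes, 1 was lower and 1 higher. Of all 27745 gene names, 272 and 194 were called in these fits. The separate-channel fit called 463 of all probes. Without the pairing of the channels (no replicate block), 0 lower, 0 higher and 22 of all probes were called. Leaving out array 2 or array 3 gave 0 lower, 0 higher and 0 of all probes. Leaving out array 1 gave 4 lower, 4 higher and 7666 of all probes. When arrays 2 and 3 were averaged to give 1 value per slide, an alternative chosen after seeing the data, 0, 0 and 0 were called (3450 without adjustment). The slide as a random block could not be fitted.

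Signs turned for probes near 0. Leaving out 1 array moved Cdh2 A_51_P262773 between -0.58 (without array 1) and 0.21 (without array 3), with 0.053 without array 2, Cdh2 A_52_P164578 between -0.0057 and 0.23, Cdh3 between -0.14 and 0.027, and Cdh11 A_52_P683146 between -0.019 and 0.20. Averaged over the probes of each gene, Cdh2 became 0.047 and Cdh13 0.024. With 1 value per slide, Cdh2 A_51_P262773 became 0.13 and Cdh3 0.0029. With median centring, Cdh11 A_51_P506204 became -0.18 and A_52_P683146 -0.16. The cause of these shifts was not tested. Probes close to background, such as Cdh4 A_52_P181943 (-1.34 to -0.18), are limited by their signal.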
